A study of Rattus norvegicus with 28 samples.

Results

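The genes described here are Gad1, Gad2, Sst and Pvalb, which mark GABA synthesis and a pair of interneuron classes. They were chosen by rat Ensembl IDs, in that order ENSRNOG00000000007, ENSRNOG00000018200, ENSRNOG00000001837 and ENSRNOG00000006471. The rule uses no measured value. All 4 were present among the 15635 genes of the count table. The tissue came from young adult male Sprague-Dawley rats and was sequenced as polyadenylated RNA in 28 libraries, 14 from the nucleus accumbens (NAc, part of the ventral striatum) and 14 from the medial prefrontal cortex (mPFC). In each region 7 libraries carried lenti-pCDH-H3.3WT, a lentivirus encoding the wild-type histone variant H3.3, and 7 carried lenti-pCDH-H3.3Q5A, in which the glutamine at tail position Q5 is replaced by alanine. The animals of every group had taken cocaine in extended-access sessions over 10 days before the injection and were tested for cue seeking after 30 days of abstinence with the virus, so no group was drug-naive or without virus. The promoter that drives the insert and the cells it reached are not given in the sources used here, and each library is bulk tissue.

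GABA, the main inhibitory transmitter of the forebrain, is made from glutamate by a pair of glutamate decarboxylases. Gad1 encodes GAD67, the form that supplies GABA throughout the cell, and Gad2 encodes GAD65, the form enriched at nerve terminals. In the striatum the projection neurons themselves are GABAergic, whereas in the cortex GABA is made by local interneurons among excitatory neurons. Sst encodes the peptide somatostatin and Pvalb the calcium-binding protein parvalbumin. Each marks a separate class of interneuron: parvalbumin cells mostly inhibit the soma and proximal dendrites of their targets and fire fast, and cortical somatostatin cells mostly inhibit dendrites.

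The start regions of 3 of the genes are shown because each holds a match to a different short motif, at distances from the start given below. Sequences are from RefSeq, build GRCr8, plus strand, and all 4 symbols matched. The first 2 stretches end 1 base before the earliest RefSeq start of the gene. Capitals mark a match to the TATA box motif (TATAAA) in Gad1 and the letters CCAAT in Gad2. The third, from Sst, holds a match to the cyclic AMP response element, TGACGTCA, in capitals.
Gad1 (chr3:75777202-75777259): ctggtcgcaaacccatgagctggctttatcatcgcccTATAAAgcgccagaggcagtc
Gad2 (chr17:89671468-89671717): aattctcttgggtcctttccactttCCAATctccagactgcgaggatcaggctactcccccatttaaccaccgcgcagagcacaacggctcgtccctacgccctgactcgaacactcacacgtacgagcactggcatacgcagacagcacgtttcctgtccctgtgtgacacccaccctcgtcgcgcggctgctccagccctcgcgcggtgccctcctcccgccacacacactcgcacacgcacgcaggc
Sst (chr11:90461537-90461566): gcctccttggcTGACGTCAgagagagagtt

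The TATAAA of Gad1 began 21 bases before the earliest start, and 213 bases before the later RefSeq start on which its window of 300 bases is placed. The CCAAT of Gad2 began 225 bases before its start, and the TGACGTCA of Sst began 3 bases after the annotated start. In windows of 300 bases placed the same way, searched on both strands, TATAAA occurred in 14.2% of 33365 promoters and CCAAT in 37.5%. The full element TGACGTCA occurred in 1.83% and, among the 4 genes, only in Sst. Its shorter form TGACG, which overlaps it, occurred in 21.2% of promoters, in Sst and once in Pvalb. The windows of Gad1, Gad2 and Pvalb held 67.7%, 63.7% and 60.7% G and C, and that of Sst 45.7%, where the median of all promoters was 51.7%. These matches describe the letters of the windows and were not tested for function.

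The libraries held 15.4 to 51.7 M counts in NAc and 20.5 to 46.98 M in mPFC. Levels are given as CPM, the counts of a gene scaled by library size with TMM factors. As an index of regional identity, the mean log2 CPM of 258 genes higher in NAc minus that of 273 genes higher in mPFC was taken per library. Both lists came from the region comparison of these same 28 libraries, so the separation of the regions by score was fixed in advance. The 4 genes were left out of both lists. This region score ran from 2.07 to 4.02 in NAc H3.3WT, from 2.66 to 4.32 in NAc H3.3Q5A, from −2.59 to −1.84 in mPFC H3.3WT and from −2.65 to −1.03 in mPFC H3.3Q5A, where replicate 34 stood apart. Marker genes of other cell types were not analysed here, because the table names genes by ID and the reference table pairs no Ensembl ID with a symbol. Whether each library is a separate animal is not stated, so the p-values rest on variation among libraries, which may be partly technical.

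The regions were compared first. Both GABA-synthesizing enzymes were higher in NAc than in mPFC without overlap between libraries, Sst was slightly higher and Pvalb was lower. In H3.3WT libraries Gad1 ran from a lowest value of 554 CPM through a median of 661 to a highest of 694 CPM in NAc, and from 243 through 261 to 321 CPM in mPFC. With H3.3Q5A it ran from 615 through 674 to 768 CPM in NAc and from 202 through 236 to 289 CPM in mPFC. Every NAc library lay above every mPFC library. The log2 fold change of NAc over mPFC was 1.27 (SE 0.075) with H3.3WT and 1.49 (SE 0.075) with H3.3Q5A, with edgeR adjusted p-values of 5.55e-13 and 2.35e-14.

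Gad2 differed between the regions by more than Gad1 did. Its levels with H3.3WT ran from 531 through 802 to 905 CPM in NAc and from 191 through 230 to 252 CPM in mPFC. With H3.3Q5A they ran from 670.5 through 862 to 951 CPM in NAc and from 181 through 219 to 233 CPM in mPFC, and again no NAc library overlapped the mPFC libraries. The log2 fold changes were 1.76 (SE 0.10) and 1.98 (SE 0.10), at edgeR adjusted p-values of 5.05e-13 and 4.13e-14. Of the 15635 genes tested with H3.3WT, 26 had a smaller p-value than Gad2 and 29 a smaller one than Gad1. With H3.3Q5A these numbers were 18 and 15.

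Sst was higher in NAc, by less than either enzyme. Its levels ran from 148 through 202 to 242 CPM in NAc H3.3WT and from 144 through 157 to 170 CPM in the mPFC libraries of that virus. There 6 of the 7 NAc libraries lay above all mPFC libraries. In NAc H3.3Q5A they ran from 139 through 155 to 213 CPM and in mPFC H3.3Q5A from 108 through 136 to 164 CPM, where 3 of the 7 NAc libraries lay above all mPFC libraries. The log2 fold changes were 0.39 (SE 0.10, edgeR adjusted p = 0.00285) and 0.30 (SE 0.10, edgeR adjusted p = 0.0155). The second call ended without NAc H3.3Q5A replicate 28 (log2 fold change 0.23, edgeR adjusted p = 0.0545).

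Pvalb was the 1 gene of the 4 that was lower in NAc. It ran from 10.46 through 26.4 to 33.01 CPM in NAc H3.3WT and from 25.4 through 34.8 to 64.0 CPM in mPFC H3.3WT, and these groups overlapped. In NAc H3.3Q5A it ran from 8.01 through 16.8 to 21.5 CPM and in mPFC H3.3Q5A from 23.1 through 34.8 to 38.4 CPM, and these groups did not overlap. The log2 fold change was −0.58 (SE 0.23, edgeR adjusted p = 0.0366) with H3.3WT and −1.17 (SE 0.23, edgeR adjusted p = 0.000141) with H3.3Q5A. The first call ended without any 1 of 5 libraries: mPFC H3.3WT replicate 3 (−0.39, edgeR adjusted p = 0.132), mPFC H3.3WT replicate 35 (−0.59, adjusted p = 0.0501), and NAc H3.3WT replicates 8 (−0.59, adjusted p = 0.0529), 12 (−0.55, adjusted p = 0.064) and 21 (−0.46, adjusted p = 0.0716).

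All 4 genes thus passed the edgeR test between regions under both viruses, 3 higher in NAc and 1 lower. Among all genes tested, 53.3% passed under H3.3WT (26.2% higher in NAc, 27.1% lower) and 55.4% under H3.3Q5A (27.7% higher, 27.7% lower), so passing alone does not set the 4 genes apart. The share of all genes without overlap between the regions was not counted, so whether the lack of overlap sets any of them apart is not known. A log2 fold change of at least 1 was reached higher in NAc by Gad1 and Gad2 under both viruses, where 5.57% and 5.85% of all genes reached it. It was reached lower in NAc by Pvalb under H3.3Q5A, where 7.81% of genes did (6.45% under H3.3WT). In bulk tissue, fewer cells of a type and less RNA per cell cannot be told apart.

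**Figure D1:**
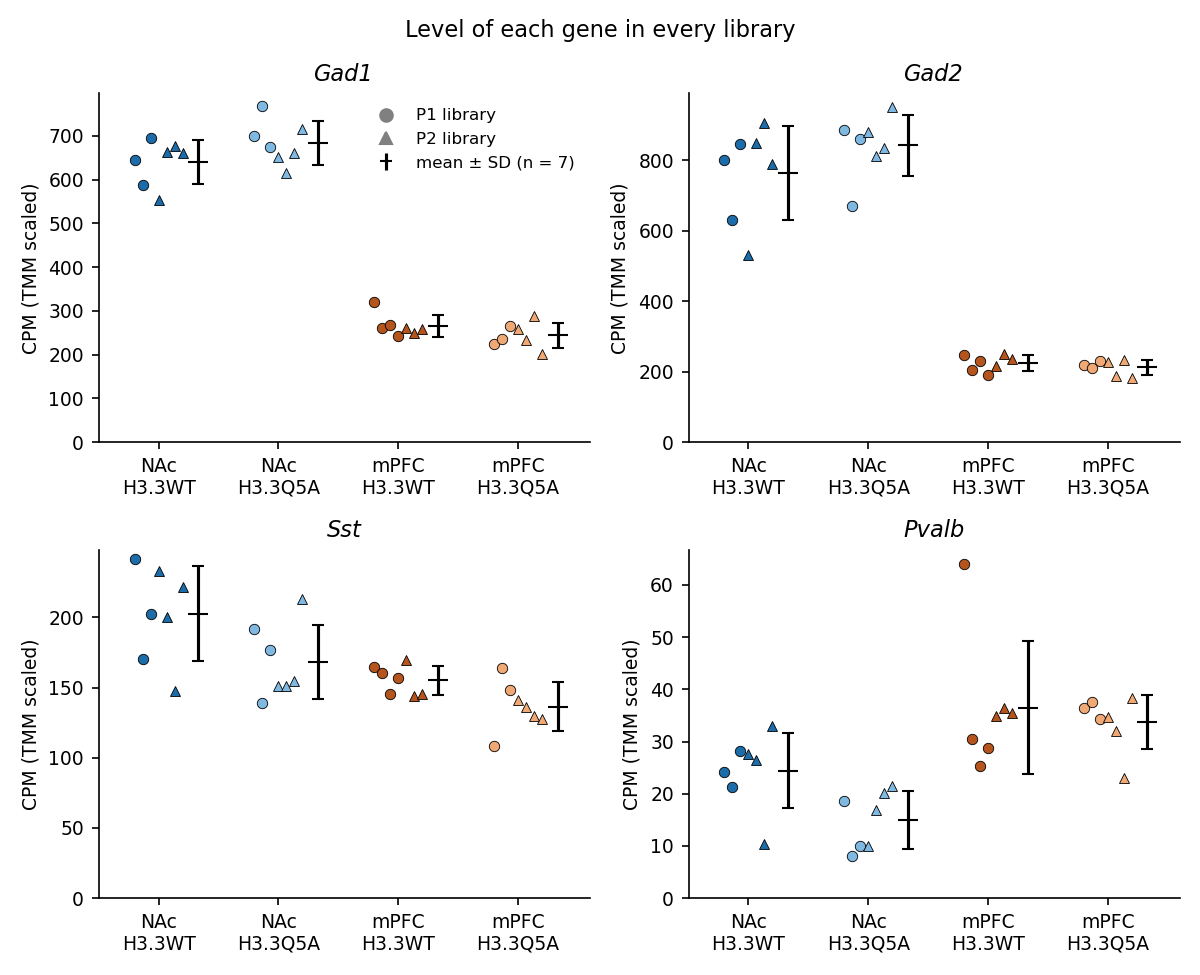
CPM of each gene (vertical axes, from 0) in every library of the 4 groups; circles are P1 and triangles P2 libraries, a mark in the titles, and bars show the mean ± SD of 7 libraries. Gad1 and Gad2 libraries of NAc all lie above those of mPFC, and a single mPFC H3.3WT library reaches 64.0 CPM for Pvalb.

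The proportions between the genes were then compared within libraries, where depth and scaling cancel. A ratio of counts also depends on transcript length, so it is compared between libraries only. The count of Gad2 per count of Gad1 had a median of 1.22 in NAc H3.3WT (0.958 to 1.34), 1.28 in NAc H3.3Q5A (0.873 to 1.35), 0.824 in mPFC H3.3WT (0.774 to 1.01) and 0.879 in mPFC H3.3Q5A (0.806 to 0.977). The mean log2 ratio was higher in NAc by 0.48 with H3.3WT and by 0.49 with H3.3Q5A (two-sided exact permutation tests over 3432 divisions, p = 0.00117 and 0.00291, adjusted p = 0.0028 and 0.00583 over 12 ratio tests). The difference was 0.56 among P1 and 0.37 among P2 libraries with H3.3WT, and 0.30 and 0.64 with H3.3Q5A.

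Sst amounted to a median of 13.99% of the summed Gad1 and Gad2 counts in NAc H3.3WT (9.35% to 21.5%) and 29.4% in mPFC H3.3WT (28.8% to 36.2%). With H3.3Q5A the medians were 10.6% in NAc (9.69% to 12.8%) and 30.03% in mPFC (24.5% to 36.6%). Relative to the enzymes, Sst was therefore lower in NAc although its CPM was higher. The differences in mean log2 ratio were −1.14 and −1.45, both with no overlap (exact permutation p = 0.000583, the smallest that 7 against 7 can give, adjusted p = 0.00175). Pvalb amounted to a median of 1.75% of the summed enzyme counts in NAc H3.3WT (0.666% to 2.56%) and 7.17% in mPFC H3.3WT (5.11% to 11.2%). With H3.3Q5A the medians were 1.17% (0.565% to 1.35%) and 7.60% (4.44% to 10.04%). The differences were −2.10 and −2.99, again without overlap (exact permutation p = 0.000583, adjusted p = 0.00175).

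**Figure D2:**
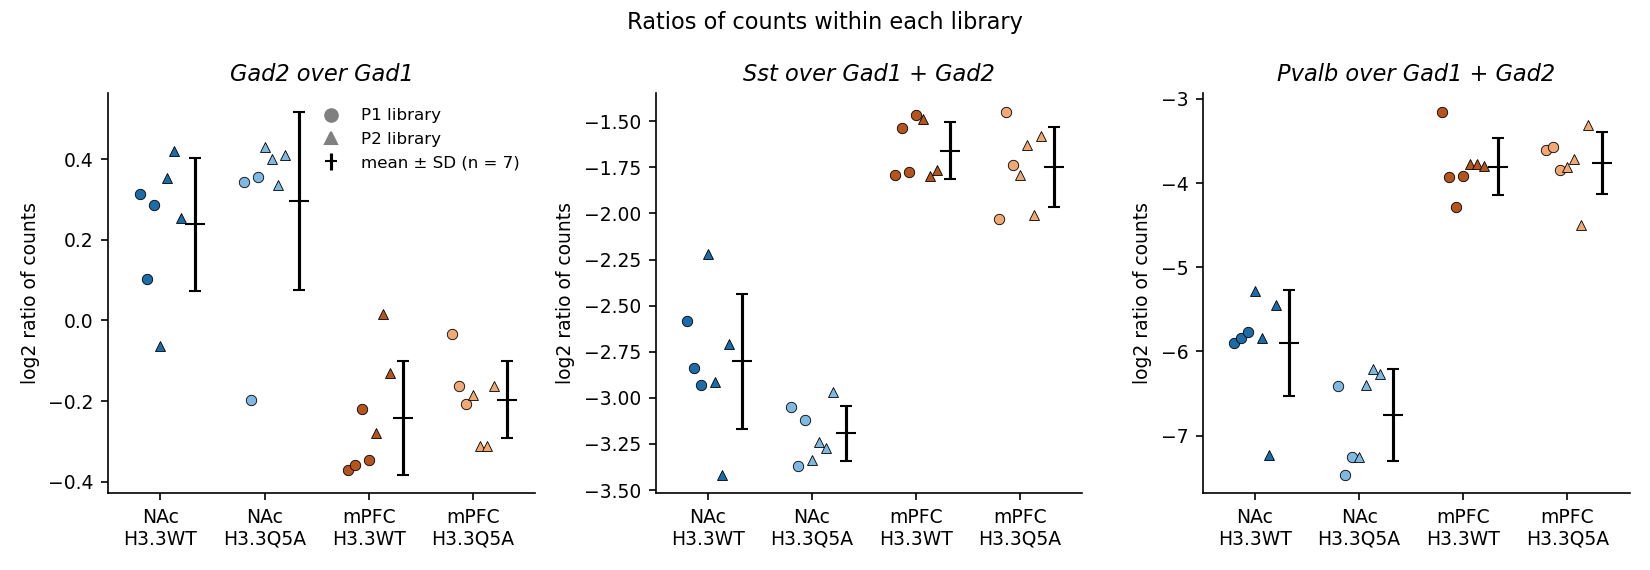
Log2 ratio of counts within each library (vertical axes do not start at 0) for Gad2 over Gad1 and for Sst and Pvalb over the summed enzymes, by group; circles are P1 and triangles P2 libraries, with mean ± SD of 7. The NAc and mPFC libraries do not overlap in either of the ratios to the summed enzymes.

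The next comparison asked whether the genes differed between H3.3Q5A and H3.3WT in NAc, the region named in the title of the study as the one where H3 dopaminylation contributes to cocaine seeking. None of the 4 genes passed the edgeR test, where 0% of the 15315 genes tested were called (0% in either direction). At an unadjusted p under 0.05 there were 2, Sst and Pvalb, both lower with H3.3Q5A, as against 1200 of all 15315 genes. DESeq2 called 9 genes. The count by limma voom changed with its settings: 57 with sample quality weights, 0 without them, and 487 with weights estimated over all 28 libraries. Each called 0 of these 4.

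Pvalb had the largest of the 4 differences. H3.3WT libraries averaged 24.4 ± 7.15 CPM (SD, n = 7) and H3.3Q5A libraries 14.99 ± 5.53 CPM. All 7 H3.3Q5A libraries lay below the H3.3WT mean and 5 of the 7 H3.3WT libraries lay above every H3.3Q5A library. H3.3WT replicate 21, at 10.46 CPM, sat among the low H3.3Q5A libraries. The log2 fold change was −0.72 (SE 0.26), a 95% interval from −1.27 to −0.17, with an unadjusted p of 0.0145 and an edgeR adjusted p of 0.637. A lower log2 fold change was found for 0.77% of genes. The adjusted p was 0.317 in DESeq2, 0.111 in voom with quality weights and 0.643 in voom without them. With weights estimated over all 28 libraries the voom adjusted p was 0.0752. In edgeR, leaving out each library gave −0.87 to −0.61, with the unadjusted p under 0.05 in each of the 14 fits. The P1 and P2 libraries alone gave −1.01 and −0.52.

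The region score tended to be higher where Pvalb was lower across NAc libraries, though the relation did not pass after adjustment. In NAc, H3.3WT libraries averaged a score of 3.02 ± 0.69 (SD, n = 7) and H3.3Q5A libraries 3.64 ± 0.52. Over the 14 NAc libraries, log2 CPM of Pvalb and the score had a Pearson r of −0.63 (permutation p = 0.016, adjusted p = 0.107 over 20 relations) and a Spearman rho of −0.59 (permutation p = 0.0305, adjusted p = 0.134). Without the 2 libraries of most extreme score r was −0.69, within P1 libraries −0.83 and within P2 libraries −0.50. Over the mPFC libraries r was −0.50, −0.21 within P1 and −0.96 within P2 libraries, and 0.37 without the 2 libraries of most extreme score. With the score, Gad1, Gad2 and Sst had an r of 0.46, 0.12 and −0.37 in NAc and 0.50, 0.35 and −0.21 in mPFC. For Gad1 in mPFC rho was 0.68 (permutation p = 0.0087, adjusted p = 0.0873). None of these relations passed after adjustment. What links the score and Pvalb was not tested. With the score as a term in the model, the log2 fold change of Pvalb was −0.44 (SE 0.27, edgeR adjusted p = 0.783). NAc H3.3WT replicate 21 had the highest score of its group, 4.02, and NAc H3.3Q5A replicate 3, with the lowest Pvalb level, had the highest score of all, 4.32.

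In NAc, Sst averaged 203 ± 33.8 CPM in H3.3WT and 168 ± 26.5 CPM in H3.3Q5A libraries, and 6 of the 7 H3.3Q5A libraries lay below the H3.3WT mean. The groups overlapped. Its log2 fold change was −0.27 (SE 0.12), a 95% interval from −0.53 to −0.0045, with an edgeR adjusted p of 0.637. The P1 and P2 libraries alone gave −0.28 and −0.27, and the score as a term gave −0.23 (SE 0.14). Leaving out each library gave −0.35 to −0.21, and the unadjusted p was no longer under 0.05 in 10 of these 14 fits.

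The enzymes had small differences of the opposite sign. For Gad1, H3.3WT libraries averaged 640.4 ± 50.5 CPM and H3.3Q5A libraries 684 ± 49.5 CPM. The log2 fold change was 0.095 (SE 0.07) with a 95% interval from −0.055 to 0.24 and an edgeR adjusted p of 0.711. For Gad2 the averages were 765 ± 134 and 842 ± 87.7 CPM and the log2 fold change 0.14 (SE 0.12) with an interval from −0.11 to 0.39 and an edgeR adjusted p of 0.741. Leaving out each library gave 0.065 to 0.11 for Gad1 and 0.06 to 0.19 for Gad2, whose lowest value was that without H3.3WT replicate 17. Both intervals held values of either sign, so the direction of these differences was not settled.

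Set against the summed enzymes within each library, Sst and Pvalb were lower with H3.3Q5A in NAc. For Sst the mean log2 ratio was −2.80 ± 0.37 (SD, n = 7) in H3.3WT libraries and −3.19 ± 0.15 in H3.3Q5A libraries, a difference of −0.39 (two-sided exact permutation p = 0.021, adjusted p = 0.0358). For Pvalb it was −5.90 ± 0.63 and −6.75 ± 0.54, a difference of −0.85 (exact permutation p = 0.0239, adjusted p = 0.0358). The groups overlapped in both ratios. Among P1 and P2 libraries the differences were −0.40 and −0.39 for Sst and −1.21 and −0.58 for Pvalb. These calls rest on an adjustment over 12 ratio tests together, which include the region comparisons with much smaller p-values. The virus comparisons were not adjusted on their own. The calls were also not stable to single libraries. That of Sst ended without any 1 of NAc H3.3WT replicates 8, 12, 17 and 23 and NAc H3.3Q5A replicates 3, 18, 19 and 22, with differences of −0.36, −0.40, −0.29, −0.38, −0.36, −0.37, −0.38 and −0.38 and exact adjusted p-values of 0.0524 to 0.0689. That of Pvalb ended without any 1 of NAc H3.3WT replicates 8, 12, 14, 17, 20 and 23 and NAc H3.3Q5A replicates 3, 7 and 18, with differences of −0.85, −0.84, −0.83, −0.75, −0.84, −0.78, −0.73, −0.77 and −0.77 and exact adjusted p-values of 0.0524 to 0.0708. The region scores of the NAc libraries of each virus are given above, and their ranges overlapped. A difference in score between the viruses was not tested, nor was the part of the score in these ratios.

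In mPFC the 4 genes lay close together between the viruses. None passed the edgeR test, where 0% of 15485 genes were called, and 1, Sst, was at an unadjusted p under 0.05, as against 1221 of all genes. DESeq2 called 8 genes and voom 0 (6 with weights estimated over all 28 libraries), none of them among the 4. H3.3WT libraries averaged 155 ± 10.4 CPM of Sst and H3.3Q5A libraries 136 ± 17.5 CPM. The log2 fold change was −0.17 (SE 0.075) with a 95% interval from −0.33 to −0.01 and an edgeR adjusted p of 0.626. It was −0.11 without H3.3Q5A replicate 2, and the unadjusted p was no longer under 0.05 in 8 of the 14 fits that left out 1 library. As in NAc, 6 of the 7 H3.3Q5A libraries lay below the H3.3WT mean. Relative to the summed enzymes Sst differed by −0.086 on the log2 scale (exact permutation p = 0.395, adjusted p = 0.527).

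The mPFC averages of Gad1 were 266 ± 25.6 CPM in H3.3WT and 244 ± 28.8 CPM in H3.3Q5A libraries (log2 fold change −0.11, SE 0.084, edgeR adjusted p = 0.673). Gad2 averaged 225 ± 22.6 and 213 ± 20.7 CPM (−0.074, SE 0.08, edgeR adjusted p = 0.757). Pvalb averaged 36.5 ± 12.8 and 33.8 ± 5.18 CPM (−0.085, SE 0.18, edgeR adjusted p = 0.882), with a 95% interval from −0.47 to 0.29. Its direction rested on mPFC H3.3WT replicate 3, at 64.0 CPM, without which the log2 fold change was 0.093. Over both regions, the order of the group means was NAc H3.3Q5A, NAc H3.3WT, mPFC H3.3WT, mPFC H3.3Q5A for Gad1 and Gad2. For Sst the first 2 of these changed places, and for Pvalb the order was mPFC H3.3WT, mPFC H3.3Q5A, NAc H3.3WT, NAc H3.3Q5A. The viruses within a region were neighbours in each of these orders. None of these differences between the viruses passed the edgeR test after adjustment over all genes tested. Before adjustment, the edgeR p was under 0.05 for Sst in both regions and for Pvalb in NAc. Sst in NAc H3.3Q5A and in mPFC H3.3WT, also neighbours, overlapped and were not compared by a test.

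The virus effect was also compared between regions. The log2 effect in NAc minus that in mPFC was 0.21 (SE 0.10) for Gad1, 0.23 (SE 0.14) for Gad2, −0.086 (SE 0.15) for Sst and −0.59 (SE 0.33) for Pvalb. The edgeR adjusted p-values were 0.904 for Gad1, Gad2 and Pvalb and 0.956 for Sst, where 0% of 15635 genes were called, and 0 of the 4 had an unadjusted p under 0.05, as against 822 of all genes. DESeq2 called 0 genes and voom 9 with quality weights and 0 without, and each called 0 of the 4. Unadjusted p-values were under 0.05 for Gad1 in DESeq2 (0.047), in voom without weights (0.042) and in edgeR without the P term (0.044). That of Pvalb was 0.027 in voom with quality weights. With 1 library left out, the unadjusted edgeR p was under 0.05 for Gad1 in 8 of 28 fits and for Pvalb in 3. The 95% interval of Pvalb ran from −1.26 to 0.081 and that of Gad1 from −0.0038 to 0.42. A difference between the regions was therefore not shown for any of the 4 genes.

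**Figure D3:**
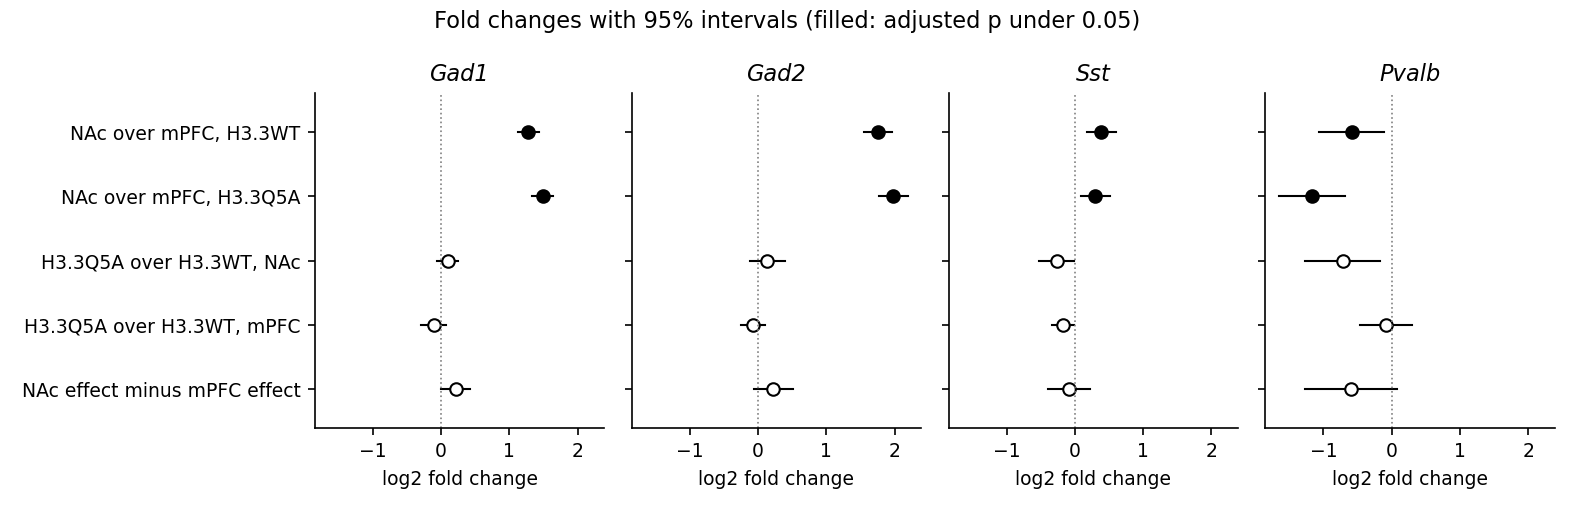
Log2 fold change (horizontal axes) of each gene in the 5 comparisons with its 95% interval from the edgeR fit; filled points had an adjusted p under 0.05. The region differences are filled for all 4 genes, and the virus effects and their difference between regions are open for all 4.

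The genes also differed in how much they varied between libraries of 1 group. The biological coefficient of variation from edgeR in NAc was 11.2% for Gad1, 16.4% for Gad2, 16.95% for Sst and 33.4% for Pvalb, where the median of all genes was 15.4%. In mPFC it was 11.7%, 11.3%, 10.7% and 23.2%, with a median of 13.9%. Pvalb varied more than 93.0% of genes in NAc and 79.2% in mPFC. Its counts ran from 137 to 1075 in NAc and from 719 to 1789 in mPFC, the lowest of the 4 genes.

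Relations between the genes across libraries were then measured for each pair in each region, and 2 of 12 passed. In NAc, log2 CPM of Sst and Pvalb had a Pearson r of 0.79 over 14 libraries (permutation p = 0.00105, adjusted p = 0.0126 over 12 relations) and a Spearman rho of 0.82 (permutation p = 0.00083, adjusted p = 0.00996). The value was 0.78 within P1 and 0.84 within P2 libraries, 0.75 without the 2 libraries farthest from the median of Sst, and 0.70 on deviations from the mean of each virus group (permutation p = 0.00527, adjusted p = 0.0498). On those deviations rho was 0.59 and did not pass (permutation p = 0.0308, adjusted p = 0.139). In mPFC the same pair had an r of 0.22 (permutation p = 0.424, adjusted p = 0.688) and a rho of 0.077 (permutation p = 0.797). Whether the regions differ in this correlation was not tested.

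Gad1 and Gad2 had an r of 0.71 in mPFC (permutation p = 0.00406, adjusted p = 0.0244) and a rho of 0.61 (permutation p = 0.0235, adjusted p = 0.137). Without the 2 libraries farthest from the median of Gad1 r was 0.46 and no longer passed (permutation p = 0.133, adjusted p = 0.398), so the call rests on those libraries. Within P1 and P2 libraries r was 0.68 and 0.76. In NAc the r was 0.58 (permutation p = 0.0344, adjusted p = 0.138) and the rho 0.58 (permutation p = 0.0341, adjusted p = 0.137). Without the 2 farthest libraries the NAc r was 0.85 and passed (permutation p = 0.00047, adjusted p = 0.00564), as did the rho of 0.79 (adjusted p = 0.0225). The NAc r was 0.24 within P1 and 0.92 within P2 libraries. NAc H3.3Q5A replicate 3 held the highest Gad1 level, 768 CPM, with the lowest Gad2 level of its group, 670.5 CPM. The other 8 relations, each enzyme with Sst or Pvalb in each region, ran from −0.41 to 0.47 and none passed.

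**Figure D4:**
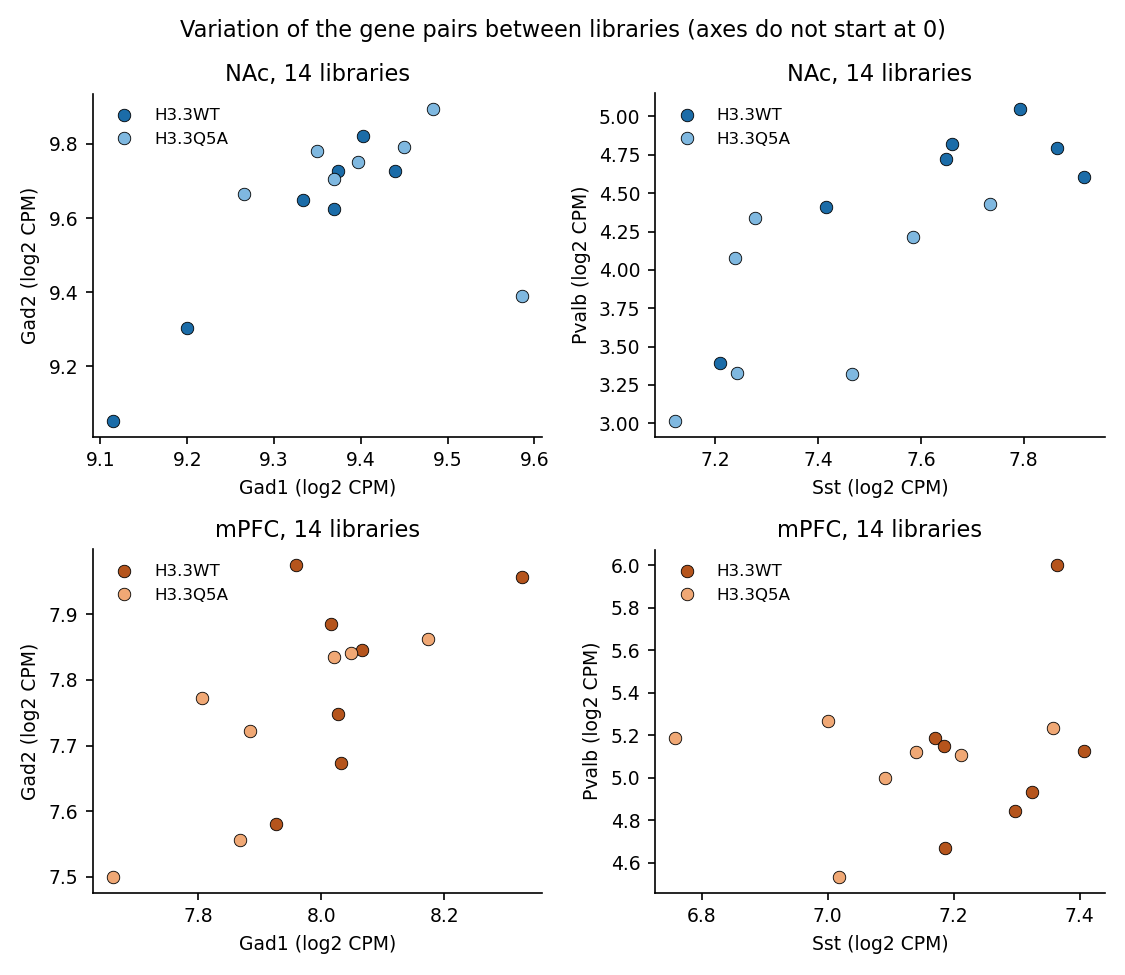
Log2 CPM of Gad2 against Gad1 and of Pvalb against Sst in the 14 libraries of each region (axes do not start at 0); each point is 1 library, coloured by virus. Sst and Pvalb rise together over the NAc libraries (r = 0.79), and 1 NAc H3.3Q5A library lies apart with high Gad1 and low Gad2.

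The likeness of other genes was measured as the Pearson correlation of deviations from the 4 group means over 28 libraries, given as a description. The gene most like Gad1 was ENSRNOG00000017210 (r = 0.75), like Gad2 ENSRNOG00000059705 (r = 0.91), like Sst ENSRNOG00000013553 (r = 0.75) and like Pvalb ENSRNOG00000017022 (r = 0.85), which the files do not pair with symbols. Their mean levels in NAc H3.3WT were 164, 111, 78.3 and 64.3 CPM, and in mPFC H3.3WT 129, 53.9, 85.2 and 78.2 CPM. Among 15634 other genes, Pvalb ranked 135 by likeness to Sst (r = 0.56) and Gad2 ranked 192 by likeness to Gad1 (r = 0.55). Gad1 ranked 2189 by likeness to Gad2, since many genes followed Gad2 more closely. All points share their libraries and their scaling.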

How the data were processed

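The deposited values were raw counts of reads per Ensembl gene from 28 polyA libraries, made by the authors from TruSeq RNA V2 libraries per the labels' protocols; that kit does not mark strand. HISAT2 2.1.0, featureCounts 2.0.1, DESeq2 1.6.3 and build rn6 are named in the submitters' processing notes, without roles. Each gene of the deposited table had at least 10 counts in at least 14 libraries. Groups came from the sample titles. The titles also carry a mark, P1 or P2, of unstated meaning, with 3 or 4 libraries of each mark per group, which entered each model as an additive term.

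Whole-table fits used the edgeR 4.0.16 quasi-likelihood test (R 4.3.3, TMM, filterByExpr, Benjamini-Hochberg adjustment, call at 0.05), on the 14 libraries of a region for the virus and on all 28 for regions and interaction. Log2 CPM and ratios used a prior count of 2. Region genes passed at 0.05 with a log2 fold of 2 or more over both viruses. Ratios were tested with two-sided exact permutation tests, correlations with 100000 permutations. Alternatives used DESeq2 1.42.0 and limma 3.58.1. The scripts were tested on simulated data. The genes, lists and tests were chosen with earlier results of these data known. The symbols come with the choice of genes, and 0 Ensembl IDs matched the RefSeq table, so pathway and marker lists fixed as symbols were not analysed here. The named genes are the 4 and, for each, the outside gene most like it. In the RefSeq table, build GRCr8, no other gene overlapped any of the 4. The counts are by Ensembl gene, with build rn6 named, and overlaps in that annotation were not checked. No libraries of 1 group agreed within sampling noise (smallest chi-square per degree of freedom 7.77).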

Additional observations from a re-analysis of the deposited data

Results flagged for a closer look

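In 28 checks of 7 libraries each, for the level of each gene and each ratio, 5 held a library separated from the rest by more than Dixon's limit; chance alone flags about 1 in 20. mPFC H3.3WT replicate 3 had the highest Gad1 (321 CPM, next 268) and Pvalb (64.0 CPM, next 36.4) of its group and the highest ratio of Pvalb to the summed enzymes (0.112, next 0.0733). mPFC H3.3Q5A replicate 34 had the lowest Pvalb level (23.1 CPM, next 32.0) and the highest region score of the mPFC libraries (−1.03). NAc H3.3Q5A replicate 3 had the lowest ratio of Gad2 to Gad1 (0.873, next 1.26).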

How the results depend on the processing

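The region differences of Gad1 and Gad2 passed in each alternative run and without each library, and the Gad2 to Gad1 ratio under H3.3Q5A moved to 0.30 in P1 libraries. Other calls between regions were lost with fewer libraries. Under H3.3WT, P1 libraries alone gave 0.38 for Sst and −0.59 for Pvalb and P2 libraries alone 0.40 and −0.54, neither passing, so 2 and 2 of the 4 genes were called; the 14 H3.3WT libraries alone gave −0.57 for Pvalb (edgeR adjusted p = 0.0628). Under H3.3Q5A, P1 and P2 libraries alone gave 0.27 and 0.31 for Sst. With single libraries left out, Pvalb under H3.3WT ran from −0.66 to −0.39 and Sst under H3.3Q5A from 0.23 to 0.35. In mPFC the virus effect was 0.011 for Gad2 in P1 libraries and 0.022 for Pvalb with voom, and Pvalb ran from −0.15 to 0.093 and its ratio to the enzymes from −0.040 to 0.16 without single libraries. No virus effect or interaction of the 4 genes was called in any alternative. Of 12 correlations 2 passed. In P1 libraries 0 did, and in P2 libraries 1 did, NAc Gad1 with Gad2, which is not one of the 2. That pair also passed without the 2 farthest libraries (r = 0.85, permutation adjusted p = 0.00564). Signs turned in P1 libraries for NAc Gad2 with Sst (0.57) and Pvalb (0.21) and mPFC Gad2 with Sst (−0.053); in P2 libraries for mPFC Pvalb with Gad1 (−0.66) and Gad2 (−0.21); without the 2 farthest libraries for NAc Gad1 with Sst (0.32) and Pvalb (0.0024), NAc Gad2 with Sst (0.23) and Pvalb (0.17), mPFC Gad1 with Pvalb (−0.60) and mPFC Gad2 with Sst (−0.19); and on deviations from group means for NAc Gad2 with Sst (0.054) and Pvalb (0.036) and mPFC Gad2 with Sst (−0.080). The causes were not tested. The score as a term, the omission of both mPFC libraries with the highest scores, the deviations and the other voom settings were chosen after seeing the data. No paired analysis was possible because the groups compared share at most 1 replicate number. Pvalb had the lowest counts of the 4 genes, down to 137, and also the largest variation between libraries.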
